A study of Mus musculus with 58 samples.

Results

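The T-box and subcutaneous depot transcription factors comprised 8 genes, Tbx15, Tbx2, Tbx3, Tbx4, Tbx5, Tbx18, Shox2 and En1, taken by gene symbol from the 56953 genes of the count table. They were measured in adipose stem cells (ASC) of mouse inguinal white adipose tissue (iWAT), the subcutaneous fat pad of the groin, by bulk Smart-seq3 RNA sequencing. All mice were C57BL6/J, castration of males or ovariectomy of females was done at 4 weeks, and the mice were terminated at 10 weeks after 4 h of fasting, with control mice of each sex. CD45-/CD31-/CD34+ cells were sorted into DPP4- cells, called ASC1, and DPP4+ cells, called ASC2, and DPP4 is a surface peptidase that marks the more immature ASC. For ASC1 there were 7 control male, 8 castrated male, 8 control female and 3 ovariectomized female libraries, and for ASC2 there were 8 of each kind, 58 in all. The study's methods give 8 mice per treatment, but the labels name no mouse for a library, so p-values measure only the spread between these libraries.

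T-box proteins bind DNA through a shared domain, the T-box, and activate or repress genes that lay out limbs, heart, skeleton and mammary gland in the embryo. Adult adipose progenitors keep part of the positional programme of the tissue they came from. Tbx15, Shox2 and En1 are known as genes of subcutaneous fat, while Tcf21 and Wt1, a basic helix-loop-helix factor and a zinc finger factor, are known from visceral fat, and Wt1 also from the mesothelium that covers it.

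RefSeq promoter sequences were at hand for 4 of the 8 genes, Shox2, En1, Tbx18 and Tbx4, as windows from 250 bases before to 50 bases after the start of transcription. The first 3 are shown, since Shox2 and En1 were the depot genes that most libraries with Tcf21 lacked and Tbx18 was read in nearly all libraries. Shox2 is at chr3:66981722-66982021 on the minus strand, En1 at chr1:120602237-120602536 on the plus strand and Tbx18 at chr9:87731211-87731510 on the minus strand, all in GRCm38.p6 and written 5' to 3' with CG dinucleotides in capitals.
Shox2: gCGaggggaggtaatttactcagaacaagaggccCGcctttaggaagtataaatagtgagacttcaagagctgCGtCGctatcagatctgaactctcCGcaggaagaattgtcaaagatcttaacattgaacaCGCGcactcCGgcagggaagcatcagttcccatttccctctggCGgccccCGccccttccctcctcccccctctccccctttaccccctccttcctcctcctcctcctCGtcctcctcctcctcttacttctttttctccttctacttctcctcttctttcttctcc
En1: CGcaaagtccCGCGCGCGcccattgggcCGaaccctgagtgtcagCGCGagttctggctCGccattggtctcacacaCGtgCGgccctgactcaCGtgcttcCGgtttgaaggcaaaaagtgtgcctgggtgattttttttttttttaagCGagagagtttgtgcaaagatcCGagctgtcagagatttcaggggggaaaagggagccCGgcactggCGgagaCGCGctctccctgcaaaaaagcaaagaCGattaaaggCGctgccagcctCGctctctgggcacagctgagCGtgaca
Tbx18: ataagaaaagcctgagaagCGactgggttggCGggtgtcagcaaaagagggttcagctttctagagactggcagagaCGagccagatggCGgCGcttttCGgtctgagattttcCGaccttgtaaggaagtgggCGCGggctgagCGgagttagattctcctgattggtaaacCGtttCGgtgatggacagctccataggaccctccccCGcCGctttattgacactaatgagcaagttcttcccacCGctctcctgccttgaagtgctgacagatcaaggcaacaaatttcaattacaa
CG occurred 11 times in the Shox2 window, 23 times in that of En1 and 15 times in that of Tbx18, against a median of 7 over 32851 promoters. The En1 count was above that of 78.5% of the promoters. TATAAA was found in the Shox2 window from base 48, and 13.6% of all promoters held it on either strand. CAGCTG, a form of the E-box, was found in the En1 window from base 286 and in 16.3% of all promoters. The T-box element TCACACCT and the full palindromic androgen and estrogen response elements (the latter 2 each with a spacer of 3 free bases) were in none of the 4 windows on either strand, and 1.27%, 0.00913% and 0.07% of all promoters held them.

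Library depth lay between 106566 and 1421547 counts, with a median of 682423, and all 8 genes were rare. A single read was worth 0.706 to 8.57 CPM, the count relative to the library size after TMM scaling. Tbx15 had 682 reads in all libraries together, Tbx3 402, Tbx18 327, Tbx5 205, Shox2 86, Tbx2 80, En1 58 and Tbx4 12. Per kilobase of exon, the level over the 58 libraries was highest for Tbx15, at 5.01 ± 4.14 CPM per kb (mean ± SD). Tbx18 followed at 1.79 ± 1.27, Tbx3 at 1.53 ± 1.02 and Tbx5 at 1.06 ± 1.18 CPM per kb. Shox2 had 0.689 ± 0.896, En1 0.566 ± 0.818, Tbx2 0.553 ± 0.811 and Tbx4 0.151 ± 0.522 CPM per kb. No neighbours in this order differed by more than the larger of their SDs.

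Sorting and fat depot were checked before the comparisons. Dpp4 was read at 49.2 to 489 CPM in every ASC2 library and at 0.872 to 47.3 CPM in every ASC1 library, so the ranges of the gates did not overlap. Against the label iWAT, 22 of the 58 libraries held 3 or more reads of Tcf21, 7 to 70 reads each, and all 22 also held Wt1. These were 3 of 7 control male ASC1, 6 of 8 castrated male ASC1, 5 of 8 control female ASC1, 2 of 8 castrated male ASC2, 2 of 8 control female ASC2 and 4 of 8 ovariectomized female ASC2 libraries. No control male ASC2 library and none of the 3 ovariectomized female ASC1 libraries held a Tcf21 read. In what follows, libraries with Tcf21 are these 22, and those without it held fewer than 3 reads. Of other visceral or mesothelial genes, Gata4 was read in 13 of the 22 and 1 of the other 36, Gata6 in 22 and 31, and Bnc1 in 12 and 18. The median of Gata6 was 12.6 CPM in the 22 and 4.75 CPM in the others. In ovariectomized female ASC1 Gata6 was at 18.4 to 30.9 CPM. The split is thus one of Tcf21 reads and not a full assignment of depot. Reads of Xist and 4 Y genes were set against the labelled sex, and 31 libraries did not pass, of which 13 showed the other sex's pattern, 13 showed both patterns and 5 reached the minimum for neither. Of these 5, 3 were ovariectomized female libraries that held Xist and no Y read. The other 26 libraries, called discordant in sex below, included 7 of the 8 castrated male ASC1 libraries. The remaining castrated male ASC1 library, replicate P, was among the 5, with 13 reads of Xist and 0 of the Y genes. Thus no castrated male ASC1 library passed, while all 8 castrated male ASC2 libraries did. Every comparison with castrated male ASC1 below rests on libraries that did not pass. The study's methods mention reads of Y genes in control female samples, attribute them to weak carry-over of male mRNA and keep the samples. The group names below are the labels, and each called result of a member is also given without the 26 discordant libraries and without those with Tcf21.

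**Figure D1:**
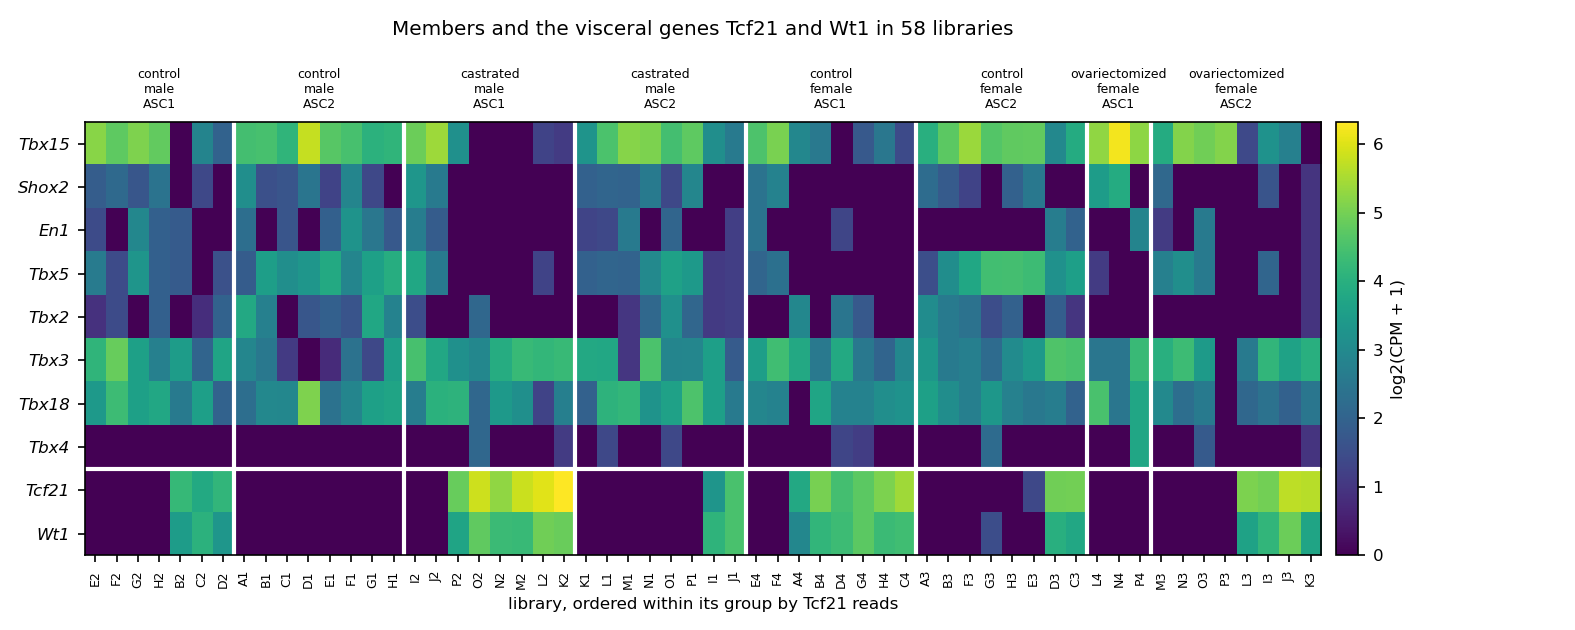
Level of each member, and of Tcf21 and Wt1, as log2(CPM + 1) by colour, with 1 column per library, ordered within its group by Tcf21 reads, and white lines between groups. Tbx15 was brighter where Tcf21 and Wt1 were dark. Shox2 was low throughout and was read mostly in the same libraries as Tbx15, while Tbx3 and Tbx18 were read in libraries of both kinds.

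The heat map of members shows how the 8 genes were distributed over libraries with and without Tcf21. Tbx15 had 0 to 14 reads in the 22 libraries with Tcf21, a range of 0 to 13.8 CPM and a median of 2.699 CPM. In the other 36 libraries it had 1 to 41 reads, a range of 6.56 to 73.4 CPM and a median of 26.2 CPM. All 6 libraries without a Tbx15 read were among those with Tcf21, yet the ranges overlapped, and 7 libraries held at least 4 reads of both genes.

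Shox2, a homeobox gene of proximal limb bones, was read in 3 of the 22 libraries with Tcf21 and in 29 of the other 36. En1, a homeobox gene of the ventral limb and of dermal lineages, was read in 6 of 22 and in 19 of 36. Tbx5 was read in 9 of 22 and in 32 of 36. The other members were spread more evenly, with Tbx3 in 22 of 22 and 34 of 36 libraries and Tbx18 in 22 of 22 and 34 of 36, and Tbx2 in 10 of 22 and 21 of 36. Since Tcf21 reads were counted in the same libraries, these are descriptions and no test was made of them.

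**Figure D2:**
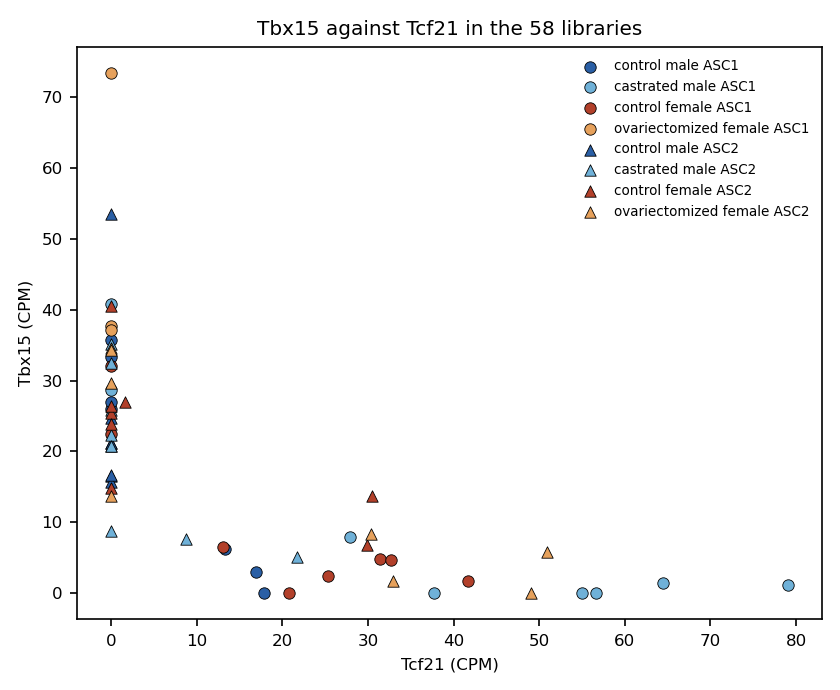
Tbx15 against Tcf21, both in CPM, with 1 point per library, coloured by labelled treatment and shaped by population. Libraries with fewer than 3 Tcf21 reads, at up to 13.1 CPM of Tcf21, reached 73.4 CPM of Tbx15, and those with 3 or more lay at or under 13.8 CPM of Tbx15.

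The plot of Tbx15 against Tcf21 shows 2 arms rather than a line. Within a labelled group the Tbx15 ranges of libraries with and without Tcf21 did not overlap in any of the 6 groups that held both. In control male ASC1 they were 0 to 6.26 CPM in 3 libraries with Tcf21 and 26.1 to 35.7 CPM in 4 without. In castrated male ASC1 they were 0 to 7.99 CPM in 6 libraries and 28.7 to 40.9 CPM in 2. The ranges came closest in castrated male ASC2, at 5.10 to 7.67 and 8.71 to 35.2 CPM, and in control female ASC2, at 6.79 to 13.8 and 14.8 to 40.5 CPM.

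Of the 8 members, 5 passed the filter on low counts and were tested across 12464 genes with the quasi-likelihood test of edgeR, with Benjamini-Hochberg adjusted p below 0.05 as the threshold. They were Tbx15, Tbx2, Tbx3, Tbx5 and Tbx18, whereas Shox2, En1 and Tbx4 had too few reads. The identifiers of the tested genes were ENSMUSG00000027868.12 for Tbx15, ENSMUSG00000000093.7 for Tbx2, ENSMUSG00000018604.19 for Tbx3, ENSMUSG00000018263.12 for Tbx5 and ENSMUSG00000032419.9 for Tbx18. Ovariectomy in ASC1 called 1 of the 5, where 34.8% of all genes were called. ASC2 against ASC1 called 1 of 5 in control males (12.2% of all genes), 1 in control females (6.11%) and 1 in ovariectomized females (35.4%). The ovariectomy effect in ASC2 minus that in ASC1 called 1 of 5, with 34.8% of all genes. In the 3 comparisons with ovariectomized ASC1 a share of 1 in 5 was below the share of all genes called.

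edgeR called no member for castration in ASC1 (2.36% of all genes called) or in ASC2 (6.96%), nor for control males against females in ASC1 (0.289%). Unadjusted p was below 0.05 for 0, 1 and 0 members in these, and DESeq2 called none. It called none for ovariectomy in ASC2 (2.09%) or for control males against females in ASC2 (6.5%), where 2 and 1 members had an unadjusted p below 0.05 and DESeq2 called 1 member in each, Tbx5 and Tbx3. No member was called for ASC2 against ASC1 in castrated males (9.09%), with 1 at an unadjusted p below 0.05 and none by DESeq2. The differences between ASC2 and ASC1 of the castration effect (2.41%) and of the sex difference (0.128%) called none, with 0 and 1 members at an unadjusted p below 0.05 and none by DESeq2. An exact permutation test over libraries, adjusted over the same genes, called none of the members in any of these groups' direct comparisons except Tbx5 in ASC2 against ASC1 of control females.

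Tbx15 is needed for the growth of skeletal elements and is a gene of subcutaneous preadipocytes. In ASC1 its lowest, median and highest values were 0, 26.1 and 35.7 CPM in 7 control male libraries, and 0, 1.28 and 40.9 CPM in 8 castrated male libraries. Each group thus spanned from no read to above 35 CPM, and the groups overlapped. Castrated against control gave a log2 fold change of -0.85 (SE 0.67, adjusted p 0.658), with a 95% interval of -2.16 to 0.46. Tcf21 was present in 3 of 7 control and 6 of 8 castrated libraries, and its part in the difference was not tested. The sex check was not passed by 4 of 7 control and 8 of 8 castrated libraries, and the part of this was not tested either. Without libraries with Tcf21 the fold change was 0.19 (SE 0.46, adjusted p 1).

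In ASC2 the values of Tbx15 were 15.7, 21.0 and 53.5 CPM in 8 control male libraries and 5.10, 21.6 and 35.2 CPM in 8 castrated male libraries. Every library held Tbx15 and the groups overlapped over most of their range. Their log2 fold change was -0.25 (SE 0.59, adjusted p 0.855), with a 95% interval of -1.41 to 0.91. In control female ASC2 the lowest, median and highest were 6.79, 24.7 and 40.5 CPM, and control males differed from them by a log2 fold change of 0.06 (SE 0.58, adjusted p 0.978).

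**Figure D3:**
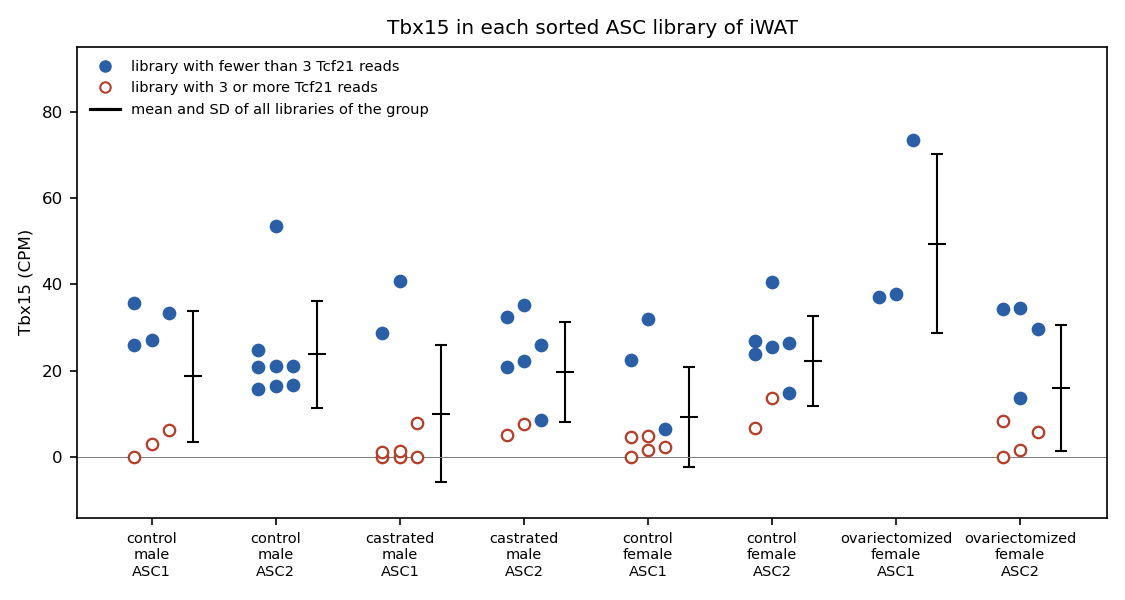
Tbx15 in CPM in each library by labelled group, with open points for libraries with 3 or more Tcf21 reads and bars for the mean and SD over all libraries of a group. The 3 ovariectomized female ASC1 libraries lay at 37.1 to 73.4 CPM, above all 8 control female ASC1 libraries.

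Tbx15 was higher in ovariectomized than in control female ASC1. The 3 ovariectomized libraries had 37.7, 73.4 and 37.1 CPM, from 33, 16 and 6 reads. The 8 control libraries had a lowest, median and highest value of 0, 4.76 and 32.1 CPM. As the plot of Tbx15 by group shows, the groups did not overlap. The log2 fold change was 2.32 (SE 0.84, adjusted p 0.0257), and exact permutation of the libraries, two-sided and on log2(CPM + 1), gave p = 0.0121 and an adjusted p of 0.0525, where 0.00606 was the smallest p possible. Without the libraries with Tcf21, 5 of which were controls and none ovariectomized, the fold change was 1.06 (SE 0.49, adjusted p 0.101). It was 1.08 (SE 0.81, adjusted p 0.333) without the discordant ones, which left 3 of 8 controls. Both rules took out the same 5 control libraries, replicates B, C, D, G and H, so these results are not separate checks. Tcf21 and discordant sex transcripts cannot be told apart in this group. Leaving out ovariectomized replicate L or N also ended the call (adjusted p 0.0717 and 0.103), and leaving out replicate P did not (0.0323).

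The 3 ovariectomized ASC1 libraries stood apart in much of the transcriptome, with a median log2 fold change of -0.34 over all genes against control female ASC1. With no scaling beyond library size this median was -0.66 and the share of called genes that were higher was 21.1% instead of 36.5%, while the fold change of Tbx15 was 1.995 (adjusted p 0.0576). Dcn, a matrix proteoglycan of fibroblasts, was at 21690 to 27560 CPM in them and at 1739 to 3471 CPM in control female ASC1. Of 5 macrophage markers 4 were lower, with a summed level of 26.3 to 68.1 against 658 to 3346 CPM. Of 5 tested markers of mammary and skin epithelium 3 were lower, with a summed level of 3.43 to 6.19 against 39.4 to 749 CPM, and 5 of the list's 6 genes had no read in the ovariectomized group. Replicates L, N and P of this group had 11634, 9698 and 9122 detected genes, from 1114334, 256565 and 188599 counts. Control female ASC1 libraries had 10502 to 14395 detected genes, from 139825 to 893255 counts. Replicate P had the fewest detected genes of all libraries. According to the study's methods, the ovariectomized group was reduced by a filter on detected genes. The part of these differences in the Tbx15 result was not tested, and fewer cells of a type and less RNA per cell cannot be told apart in bulk libraries.

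In ASC2 the 8 ovariectomized libraries had a lowest, median and highest Tbx15 of 0, 11.1 and 34.6 CPM, below the 73.4 CPM and 37.1 CPM that bounded ovariectomized ASC1. Against control female ASC2 the log2 fold change was -0.88 (SE 0.66, adjusted p 0.628), with a 95% interval of -2.17 to 0.41. The 4 libraries with Tcf21 had 0 to 8.38 CPM and the 4 without had 13.7 to 34.6 CPM, and without libraries with Tcf21 the fold change was -0.06 (SE 0.40, adjusted p 1). The ovariectomy effect in ASC2 minus that in ASC1 was -3.20 (SE 1.07, adjusted p 0.0158) on the log2 scale. It was -1.11 (SE 0.63, adjusted p 0.194) without libraries with Tcf21 and -0.89 (SE 1.15, adjusted p 0.621) without the discordant ones.

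Between populations, Tbx15 in ASC2 against ASC1 had log2 fold changes of 0.31 (SE 0.61, adjusted p 0.798) in control males, 1.21 (SE 0.66, adjusted p 0.324) in control females and 0.90 (SE 0.65, adjusted p 0.444) in castrated males. In ovariectomized females it was -1.996 (SE 0.84, adjusted p 0.0568), where the groups did not overlap. None passed the threshold. Without libraries with Tcf21 the first 3 were -0.40, 0.20 and -0.51, none of them called (adjusted p 0.566, 0.921 and 0.891). Without the discordant libraries Tbx15 was called higher in ASC2 of control males, at 2.75 (SE 0.86, adjusted p 0.0432), and lower in ASC2 of ovariectomized females, at -1.99 (SE 0.67, adjusted p 0.0218). This rule took out no ovariectomized library, so the latter fold change hardly moved while its SE fell from 0.84 to 0.67. The control male ASC1 libraries left by this rule, replicates B, C and D, were the 3 with Tcf21.

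Shox2 and En1, the other depot genes, were too rare for a test. Shox2 was read in 5 of 7 control male ASC1 libraries and in 2 of 8 castrated ones, with at most 3 and 5 reads. The 2 castrated libraries with Shox2 were the 2 without Tcf21, at 5.11 and 8.97 CPM. In control female ASC1, 2 of 8 libraries held it, at up to 6.01 CPM, and these were among the 3 with fewer than 3 Tcf21 reads. In ovariectomized female ASC1 replicates L, N and P it had 9, 3 and 0 reads, or 10.3, 13.8 and 0 CPM, and replicate N held the highest value of all libraries.

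In ASC2, Shox2 was read in 7 of 8 control male, 6 of 8 castrated male, 5 of 8 control female and 3 of 8 ovariectomized female libraries. Its highest values in these were 7.79, 6.47, 4.75 and 3.43 CPM. En1 was read in 6 of 8 control male, 5 of 8 castrated male, 2 of 8 control female and 3 of 8 ovariectomized female ASC2 libraries, with at most 5 reads in any. In control female ASC2 both libraries with En1 held Tcf21, with 3 and 4 reads of En1, and the 6 others had none. The order seen for Shox2 over all libraries thus did not hold for En1 in that group. Nor did it hold for Shox2 in ovariectomized female ASC2, where 2 of 4 libraries with Tcf21 and 1 of 4 without had reads.

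Tbx5 and Tbx4 are the paired limb genes of the family, with Tbx5 known from the forelimb and heart and Tbx4 from the hindlimb. Tbx5 was the more abundant, and Tbx4 was read in 10 of 58 libraries with at most 2 reads in any, of which the highest was 12.4 CPM in ovariectomized female ASC1 replicate P. Tbx4 had no read in 7 control male ASC1 and 8 control male ASC2 libraries, where 3 reads over each group would be 0.54 and 0.459 CPM. This limit covers counting error only.

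Tbx5 was higher in ASC2 than in ASC1 of control females. Its lowest, median and highest values were 1.85, 11.7 and 20.5 CPM in 8 ASC2 libraries, and 0, 0 and 4.01 CPM in 8 ASC1 libraries, of which 6 had no read. Only the lowest ASC2 library lay within the range of ASC1. Its log2 fold change was 3.39 (SE 0.74, adjusted p 0.00131), and the exact permutation test gave p = 0.000466 with an adjusted p of 0.0245. It was 2.09 (SE 0.74, adjusted p 0.171) without libraries with Tcf21, which were 5 of 8 in ASC1 and 2 of 8 in ASC2, and 1.60 (SE 1.09, adjusted p 0.628) without the discordant ones. The latter fit left ASC2 replicates C and D, both with Tcf21, and ASC1 replicates A, E and F, with fewer than 3 Tcf21 reads. Of 5 tested markers of mammary and skin epithelium 3 were lower in ASC2, with a summed level of 13.0 to 52.3 against 39.4 to 749 CPM in ASC1. Both tested markers of skeletal muscle were higher in ASC2, Mylpf by 3.27 (SE 0.72, adjusted p 0.00155) and Acta1 by 2.68 (SE 0.69, adjusted p 0.00781) on the log2 scale, with a summed level of 3.67 to 158 against 0 to 36.4 CPM for the list. The part of either list in the result was not tested.

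In the other groups the same comparison of Tbx5 did not pass the threshold. Control males had 2.60, 9.77 and 14.2 CPM in 8 ASC2 libraries and 0, 2.55 and 8.88 CPM in 7 ASC1 libraries. Here the log2 fold change was 1.57 (SE 0.64, adjusted p 0.1). It was 0.84 (SE 0.71, adjusted p 0.531) in castrated males, where Tbx5 was read in 8 of 8 ASC2 and 3 of 8 ASC1 libraries. All 8 of these ASC2 libraries passed the sex check and none of the ASC1 libraries did. The sex difference in ASC2 minus that in ASC1 was -1.82 (SE 1.00, adjusted p 0.519), so the contrast between populations was not shown to differ by labelled sex. The sex check was not passed by 4 of 7 control male ASC1, 4 of 8 control male ASC2, and 6 of 8 control female libraries in each population. This value therefore compares labels and cannot settle a difference by sex.

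After ovariectomy Tbx5 had 0, 2.04 and 7.69 CPM in 8 ASC2 libraries, and 5 of the 8 held it. The ranges overlapped with control female ASC2, whose median of 11.7 CPM lay above all 8 ovariectomized libraries. The log2 fold change was -2.20 (SE 0.65, adjusted p 0.0578), which missed the threshold, while DESeq2 gave -2.23 (SE 0.66, adjusted p 0.0329). Without libraries with Tcf21 it was -1.34 (SE 0.64, adjusted p 0.47). In castrated against control male ASC2 it was -1.05 (SE 0.60, adjusted p 0.304).

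**Figure D4:**
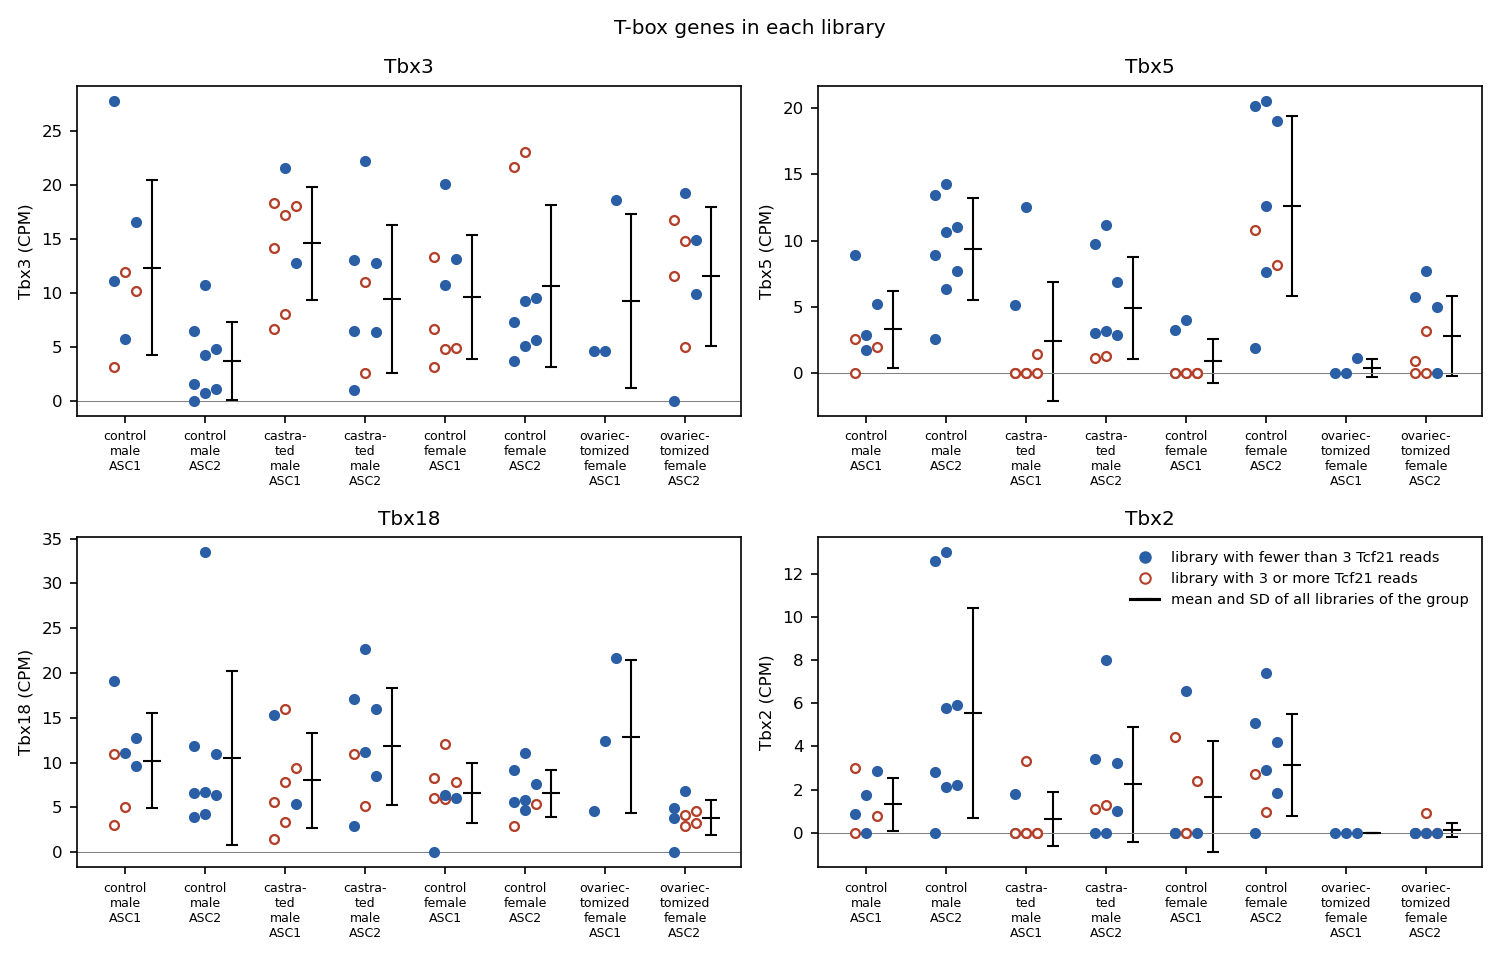
Tbx3, Tbx5, Tbx18 and Tbx2 in CPM in each library by labelled group, with open points for libraries with 3 or more Tcf21 reads and bars for the mean and SD over all libraries of a group. Points of equal value lie on each other, mostly at 0. By group mean Tbx5 was highest in control female and control male ASC2, and Tbx3 lowest in control male ASC2.

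Tbx2 and Tbx3 encode related repressors, and Tbx3 is needed for the mammary gland and limb. Tbx3 was lower in ASC2 than in ASC1 of control males. Its lowest, median and highest values were 0, 2.91 and 10.7 CPM in 8 ASC2 libraries, and 3.13, 11.1 and 27.8 CPM in 7 ASC1 libraries. The plot of T-box genes by group shows that the upper ASC2 libraries overlapped with the lower ASC1 libraries. The log2 fold change was -1.64 (SE 0.51, adjusted p 0.0227), and the exact permutation test gave p = 0.012 with an adjusted p of 0.0983. Unlike the other calls it also passed without libraries with Tcf21, at -1.97 (SE 0.57, adjusted p 0.0364). The 4 control male ASC1 libraries left in that fit, replicates E to H, were all discordant in sex. Without the discordant libraries, which left the 3 ASC1 libraries with Tcf21, Tbx3 did not pass, at -1.21 (SE 0.77, adjusted p 0.362). Nor did it pass in a fit of these 2 groups alone, at -1.66 (SE 0.57, adjusted p 0.0704).

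Markers of other cells moved in this comparison as well. Of 5 macrophage markers 2 were lower in ASC2, Lyz2 (-1.45) and Csf1r (-0.98), while the median of the summed level was 795 CPM in ASC2 and 664 CPM in ASC1, with ranges of 706 to 1977 and 541 to 6364 CPM. Of 5 mural markers 1 was lower, Notch3 (-1.71, SE 0.50, adjusted p 0.0179), with summed levels of 75.8 to 771 against 594 to 838 CPM. Of 9 tested visceral and mesothelial markers 3 were lower, Upk1b, Wt1 and Tcf21, with summed levels of 6.69 to 33.04 against 12.2 to 78.9 CPM, and of 2 tested skeletal muscle markers 1 was higher, Mylpf (2.85, SE 0.80, adjusted p 0.0123). Their part in the Tbx3 result was not tested.

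In control females Tbx3 had 3.67, 8.30 and 23.1 CPM in ASC2 and 3.12, 8.68 and 20.04 CPM in ASC1. The groups overlapped throughout, and the log2 fold change of ASC2 against ASC1 was 0.24 (SE 0.46, adjusted p 0.854). The sex difference in ASC2 minus that in ASC1 was -1.88 (SE 0.69), with an unadjusted p of 0.00791 and an adjusted p of 0.238. Control male against control female ASC2 gave -1.50 (SE 0.49, adjusted p 0.0519), and DESeq2 gave -1.53 (SE 0.51, adjusted p 0.0378). The 2 highest control female ASC2 libraries, at 21.6 and 23.1 CPM, were those with Tcf21, and without libraries with Tcf21 the fold change was -0.83 (SE 0.57, adjusted p 0.492). Without the discordant libraries, which left these 2 as the control female ASC2, it was -2.66 (SE 0.76, adjusted p 0.0505), and without all 31 that did not pass the sex check it was called, at -2.67 (SE 0.75, adjusted p 0.0444).

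Castrated male ASC2 had 1.00, 8.72 and 22.2 CPM of Tbx3. The range overlapped with that of control male ASC2, where 7 of 8 libraries held a read. With castration the log2 fold change was 1.26 (SE 0.51, adjusted p 0.118), and it was 1.41 (SE 0.55, adjusted p 0.135) without libraries with Tcf21. In ASC1 the change with castration was 0.32 (SE 0.45, adjusted p 0.841), with a 95% interval of -0.56 to 1.20. With ovariectomy it was -0.33 (SE 0.79, adjusted p 0.77) in ASC1 and 0.18 (SE 0.45, adjusted p 0.939) in ASC2.

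Tbx2 was read in 31 of 58 libraries, mostly with 1 to 3 reads. Its values in control male ASC2 were 0, 4.31 and 13.0 CPM, the highest of any group, and in control male ASC1 they were 0, 0.872 and 2.98 CPM. Between them the log2 fold change was 1.84 (SE 0.71, adjusted p 0.081). The 3 ovariectomized female ASC1 libraries had no read, and 3 reads over the group would be 2.39 CPM. Ovariectomized female ASC2 had 1 read in 8 libraries against 17 reads in 8 control libraries, a ratio of 0.0623 per scaled library size, with an exact 95% binomial interval of 0.00149 to 0.398 for counting error only. By edgeR this comparison missed the threshold (log2 fold change -3.17, SE 0.94, adjusted p 0.0562), and the exact permutation test gave p = 0.0014 with an adjusted p of 0.103.

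Tbx18 is a repressor of the epicardium, ureter and other mesenchyme, and in adult fat it is known from mural cells as well as from ASC. Like Tbx3 it had reads in 56 of 58 libraries. Its group medians lay between 4.02 CPM in ovariectomized female ASC2 and 12.4 CPM in ovariectomized female ASC1. With castration its log2 fold change was -0.36 (SE 0.42, adjusted p 0.8) in ASC1 and 0.22 (SE 0.39, adjusted p 0.802) in ASC2, with 95% intervals of -1.18 to 0.46 and -0.55 to 0.98.

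Tbx18 was lower in ASC2 than in ASC1 of ovariectomized females. The ASC1 replicates L, N and P had 21.7, 4.59 and 12.4 CPM, from 19, 1 and 2 reads. The 8 ASC2 libraries had a lowest, median and highest value of 0, 4.02 and 6.87 CPM, so that 1 of 3 ASC1 libraries lay within their range. The log2 fold change was -1.75 (SE 0.58, adjusted p 0.0147), and the exact permutation test gave p = 0.0364 with an adjusted p of 0.106. It rested on replicate L, without which the fold change was -0.85 (SE 0.94, adjusted p 0.553). Without libraries with Tcf21, all 4 of them ASC2, it was -1.53 (SE 0.75, adjusted p 0.12), and without the discordant ones, which took out none of these 11 libraries, it was called, at -1.74 (SE 0.65, adjusted p 0.037). Without all 31 that did not pass the sex check it was not (-1.75, SE 0.72, adjusted p 0.0633). The median of all genes in this comparison was 0.37. Of 5 mural markers Acta2 was higher in ASC2 (5.02, SE 0.65, adjusted p 8.51e-09), and the summed level was 150 to 206 CPM in ASC1 and 832 to 2047 CPM in ASC2. Kcnj8, a potassium channel of pericytes, was lower in ASC2 (-3.19, SE 0.48, adjusted p 3.8e-07), the direction of Tbx18, and the median of the 5 was 0.49. The part of these in the Tbx18 result was not tested.

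Against control females, Tbx18 after ovariectomy had a log2 fold change of 1.07 (SE 0.57, adjusted p 0.134) in ASC1 and -0.57 (SE 0.46, adjusted p 0.677) in ASC2. The difference between these effects was -1.63 (SE 0.73, adjusted p 0.0742). In the other groups ASC2 and ASC1 differed by -0.05 (SE 0.40, adjusted p 0.96) in control males, -0.12 (SE 0.43, adjusted p 0.935) in control females and 0.53 (SE 0.41, adjusted p 0.484) in castrated males. None of these passed the threshold.

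**Figure D5:**
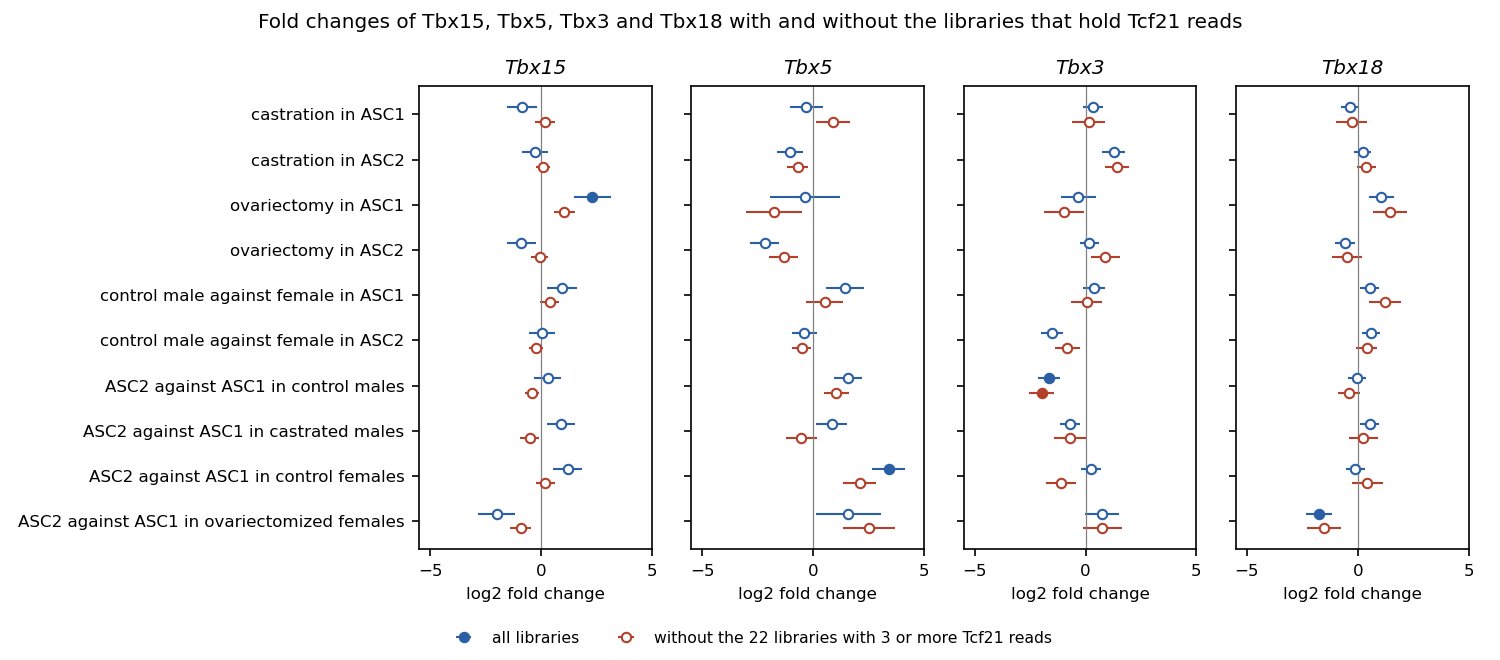
Log2 fold changes of Tbx15, Tbx5, Tbx3 and Tbx18 with SE in 10 comparisons, from all libraries and without the 22 libraries with 3 or more Tcf21 reads, with filled points for an adjusted p below 0.05. Of the 4 calls made with all libraries, Tbx3 in ASC2 against ASC1 of control males was the only one that was also called without the libraries with Tcf21. All control male ASC1 libraries left in that fit were discordant in sex.

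The plot of fold changes sets the 2 fits side by side. Leaving out the libraries with Tcf21 moved Tbx15 toward 0 in ovariectomy in ASC1 (2.32 to 1.06) and in castration in ASC1 (-0.85 to 0.19), and moved Tbx3 in ASC2 against ASC1 of control females from 0.24 to -1.10. The last was not called in either fit (adjusted p 0.854 and 0.552).

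Of 11 other T-box genes, 1 was tested, and it was called in none of the 13 comparisons. Of 30 limb and mesenchyme patterning factors, 17 were tested. In ovariectomy in ASC1, 5 were higher and 1 was lower, 35.3% of the 17 where 34.8% of all genes were called, with a median log2 fold change of 0.57 over the 17 and -0.34 over all genes. The higher ones included the homeobox genes Meox2 (3.86, SE 0.61, adjusted p 1.18e-06) and Prrx1 (0.81, SE 0.27, adjusted p 0.0151), and the lower one was Meis1 (-2.15, SE 0.57, adjusted p 0.00238), a cofactor of Hox proteins. Of the 6, 1 was also called without libraries with Tcf21 and 1 without the discordant ones, and both times it was Meox2 (3.46 in each). Both rules left the same libraries in these groups, so this is not a separate check. Without ovariectomized replicate L, 2 of the 6 were called. In ASC2 against ASC1, the zinc finger gene Osr2 was higher in control females (2.45, SE 0.42, adjusted p 4.11e-05) and in control males (1.82, SE 0.42, adjusted p 0.00192), comparisons in which 3 and 1 of the 17 were higher and none lower, 17.6% and 5.88% against 6.11% and 12.2% of all genes. The medians over the 17 were 0.08 and 0.27, and those over all genes 0.00 and -0.01. Osr2 was not called in either without libraries with Tcf21 (1.63 and 1.26, adjusted p 0.197 and 0.133). Without the discordant libraries it was called in males (2.95, adjusted p 0.0112) and not in females (2.10, adjusted p 0.265). In that fit the control male libraries were with Tcf21 in ASC1 and without it in ASC2, and the control female ones the reverse.

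Castration called 2 of the 17 patterning factors in ASC2, both lower (11.8% against 6.96% of all genes), and none in ASC1, where 7 had an unadjusted p below 0.05. The 2 were Osr2 (-1.54, SE 0.40, adjusted p 0.00994) and the somite gene Meox1 (-1.71, SE 0.49, adjusted p 0.0239). Meox1 was also higher in control male than in control female ASC2 (2.25, SE 0.51, adjusted p 0.00316). Without the discordant libraries neither castration call passed (adjusted p 0.0678 and 0.113), and without those with Tcf21 only that of Meox1 did. The sex difference in Meox1 passed in both. In the fit without discordant libraries both control female ASC2 libraries held Tcf21 and no control male one did. In the fit without Tcf21 all control female ASC2 libraries were discordant. Meox1 had a median of 2.77 CPM in the libraries with Tcf21 and 17.7 CPM in the others, and the part of this was not tested. The median of the 17 was -0.17 for castration in ASC2 and -0.22 for that sex difference, where 2 were higher (11.8% against 6.5% of all genes), against 0.00 and 0.00 over all genes.

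T-box partners and limb signals numbered 14, of which 10 were tested. In ovariectomy in ASC1, 4 were higher and 3 lower, 70.0% of the 10 where 34.8% of all genes were called, with a median of 0.84. Wnt5a, a ligand of limb outgrowth, was higher (2.61, SE 0.38, adjusted p 2.61e-07), as was Fgf10 (1.87, SE 0.46, adjusted p 0.00115), a limb bud growth factor controlled by Tbx4 and Tbx5 in the embryo. Grem1, a BMP antagonist, was lower (-6.74, SE 1.959, adjusted p 0.0056). These 3 were also called without libraries with Tcf21 and without the discordant ones, where 5 of the 7 were called each time. Both rules left the same libraries in these groups. Without ovariectomized replicate L, 2 of the 7 were called, and Fgf10 (adjusted p 0.602) and Grem1 (0.109) were not. None of the 10 was called for castration in either population, with 3 and 0 at an unadjusted p below 0.05, or for ovariectomy in ASC2, with 2.

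Over the 58 libraries, the genes most like Tbx15 in log2(CPM + 1) among 10542 genes of at least 5 CPM were Rbpj, the DNA-binding factor of the Notch pathway (Pearson r 0.80, Spearman rho 0.69), Adh7, an alcohol dehydrogenase (0.78 and 0.67), and Rpl39l, a copy of a ribosomal protein gene (0.76 and 0.67). Those most like Tbx3 were Tmem134, Ilkap and Mrpl44 (Pearson r 0.60, 0.59 and 0.59), and those most like Tbx18 were Rpia, Sp1 and Dtwd1 (0.68, 0.63 and 0.62). The points share their library, its depth and its Tcf21 content, and at a few reads per library the lower values are weak.

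Genes on the other strand overlap 4 members, Tbx3os1 with Tbx3, Gm43120 with Tbx15, D030062O11Rik with Tbx18 and Rsrc1 with Shox2. Whether the counting used strand is not given in the sources used here, so reads of these pairs may not be separable.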

How the data were processed

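Bulk Smart-seq3 libraries of sorted iWAT ASC were analysed, 58 in 8 groups taken from their labels. The authors trimmed reads with NGmerge, quantified them with Salmon 1.9.0 on Gencode transcripts (GRCm39), removed libraries under 8500 detected genes and deposited the table as estimated counts per gene, without normalization, with UMI and non-UMI reads together. Of the values above 0, 15.0% were not whole, and all were rounded. No library was left out of the main fit.

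The 12464 genes that reached 5 reads in more than 3 libraries were tested with edgeR 4.0.16 in R 4.3.3 (TMM, estimateDisp, glmQLFit, glmQLFTest, 1 coefficient per group, no block), with Benjamini-Hochberg adjustment over all of them. SE is the absolute log2 fold change divided by the square root of F, and 95% intervals are normal intervals from it. The biological coefficient of variation was 35.6%. The study used DESeq2 (1.42.0 here), an alternative. Others were RLE factors, library size only, no filter, filterByExpr, robust estimation, only the groups compared, a replicate block, each ovariectomized ASC1 library left out, and exact permutation of log2(CPM + 1) (two-sided, scipy 1.17.1, Python 3.11.15). Libraries that did not pass the sex check were left out (fewer than 3 reads of 4 Y genes, or 20 or more of Xist, for a male label, and the reverse for a female one), as were libraries with 3 or more Tcf21 reads. After the data had been seen, 2 rules were added, one of 3 or more reads of Tcf21 and Wt1 together, and one that left out only the 26 libraries with the other sex's pattern or both, keeping those under both read minimums.

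Named genes are the 8 members, up to 6 per list with the lowest adjusted p in a comparison, and for members of at least 5 CPM the 3 genes most like them. The members, lists and rules were chosen with earlier results of these data known. Gene symbols and exon lengths were looked up by gene identifier in Gencode M21, and promoter windows came from RefSeq GRCm38.p6. On simulated counts for castration in ASC2, 195 of 200 genes changed by 2 on the log2 scale were recovered with 10 false calls on 12127 genes. The changed genes were drawn from those with a mean of at least 10 reads per library. Tbx2, Tbx3, Tbx5 and Tbx18 lay below that mean, so this recovery does not apply to them. No 2 libraries of a group looked like copies (lowest chi-square per gene 1.445).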

Additional observations from a re-analysis of the deposited data

Results flagged for a closer look

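In 54 sets of values (a member in a group of 7 or 8 libraries), 11 held a library whose gap to its nearest neighbour was large for the group's range, where chance flags about 1 in 20. That rate does not hold for sets that are mostly 0. Where only 1 library held a read, as for Tbx2 in ovariectomized female ASC2, a flag was certain, so 11 of 54 does not measure an excess. Replicate D of control male ASC2 was high for 2 members, with Tbx15 at 53.5 CPM (24 reads) and Tbx18 at 33.5 CPM (15 reads). Replicate I of castrated male ASC1, without Tcf21, had Tbx5 at 12.6 CPM (7 reads). The other 8 rested on 1 to 5 reads. They were Tbx2 at 7.99 CPM in castrated male ASC2 replicate O and 0.927 CPM in ovariectomized female ASC2 replicate K, and Tbx4 at 3.33 CPM in castrated male ASC1 replicate O, 3.67 CPM in control female ASC2 replicate G and 2.48 CPM in ovariectomized female ASC2 replicate O. En1 was at 6.66 CPM in control male ASC1 replicate G, 4.28 CPM in control female ASC1 replicate E and 4.95 CPM in ovariectomized female ASC2 replicate O.

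The ovariectomy effect on Tbx15 differed between ASC2 and ASC1 by -3.20 on the log2 scale (edgeR, adjusted p 0.0158), and this was not called without libraries with Tcf21 (-1.11, adjusted p 0.194).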

How the results depend on the processing

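When called members were counted again under each alternative, 131 counts stayed within 1.5 times the main count and 34 did not. The 131 include counts that stayed at 0 where the main fit called none, and counts that stayed by another gene. The tally is therefore not a measure of how stable the calls were. The 2 sex rules left out the 31 libraries that did not pass the sex check, or only the 26 with the other sex's pattern or both. For ovariectomy in ASC1 the 1 call became 0 with library size only, with exact permutation, under both sex rules and under both rules on Tcf21, and it was 0 to 1 over the libraries left out in turn. Ovariectomy in ASC2 went from 0 to 1 (Tbx5) with filterByExpr and DESeq2. Control males against females in ASC2 went from 0 to 1 (Tbx3) with these and without the 31. The 1 call for ASC2 against ASC1 of control males became 0 with only the groups compared and with exact permutation. Under both sex rules it stayed 1 by another gene, Tbx15 in place of Tbx3. In ovariectomized females it stayed 1 without the 31, by Tbx15 (-2.58, adjusted p 0.00906) in place of Tbx18. The 1 call in control females became 0 under both sex rules and both rules on Tcf21. In ovariectomized females it became 2 (Tbx15, Tbx18) with filterByExpr, with only the groups compared and without the 26, 0 under both rules on Tcf21 and with exact permutation, and 0 to 1 over the libraries left out in turn. The difference of the ovariectomy effects became 2 with only the groups compared, 0 under both rules on Tcf21 and both sex rules, and 1 to 2 over the libraries left out in turn. The fold change of Tbx15 in ASC2 against ASC1 turned from 0.31 to -0.40 and -0.41 in control males under the 2 rules on Tcf21, and from 1.21 to -1.34 and -1.10 in control females under the 2 sex rules. In control females both sex rules left ASC2 replicates C and D, both with Tcf21, against ASC1 libraries with fewer than 3 Tcf21 reads. All these rules also left fewer libraries, and the cause of the changes was not tested.

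Over 26 pairs of ASC1 and ASC2 libraries with the same replicate letter, the correlation of deviations from the group means was -0.18 to 0.29, and 8 of 26 correlated best with their own letter, so the letter was not taken as a pair. By group it was 0.0537 to 0.203 in control males (own letter best in 5 of 7), -0.067 to 0.287 in control females (3 of 8), -0.181 to 0.0328 in castrated males (0 of 8) and -0.0078 to 0.0176 in ovariectomized females (0 of 3). With a replicate block the count became 2 (Tbx5, Tbx15) in control females and 0 in ovariectomized females, where 4 members were tested, and in control males Tbx5 was called (1.83, adjusted p 0.0478) in place of Tbx3 (-1.94, adjusted p 0.0663). Fits under the sex rules could not be made for comparisons with castrated male ASC1. Depth limits all values, since most members had fewer than 20 reads per library, and absence of reads for Tbx4, En1 or Shox2 does not show absence of the transcript.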
